A study of Mus musculus with 3 samples.

Results

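The CC chemokine cluster on mouse chromosome 11 is described here by 10 genes: Ccl2, Ccl3, Ccl4, Ccl5, Ccl6, Ccl7, Ccl8, Ccl9, Ccl11 and Ccl12. They were chosen by their GENCODE M21 symbols, with no measured value in the rule, and are 10 of the 55536 annotated genes in the tables. Macrophages grown from the bone marrow of C57BL/6J mice, a primary cell type, were the source, and total RNA of their cytosolic fraction was sequenced after depletion of ribosomal RNA. All cells had been exposed to lipid A, the part of bacterial lipopolysaccharide that activates Toll-like receptor 4, at 100 ng/ml for 120 min. There were 3 libraries of this 1 group, so no level can be set against untreated cells, another time or another fraction. The labels number the libraries as biological replicates 1, 2 and 3, give them the same donor entry, list sex and age as not collected and name no separate animals or cultures. The spread between them may therefore be technical.

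CC chemokines are small secreted proteins that carry adjacent cysteines near their amino end and attract leukocytes through G protein-coupled receptors on the target cell. Macrophages that sense bacterial products are a known source of several of them. The family falls by sequence and receptor into the monocyte chemoattractant group (Ccl2, Ccl7, Ccl12, Ccl8, with the eotaxin gene Ccl11 beside them) and the macrophage inflammatory protein group (Ccl3, Ccl4, Ccl5, Ccl9, Ccl6).

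The members lay in a pair of blocks on mm10 chromosome 11 that followed this division. The Ccl2 block ran over 81229 bp and held, from left to right, Ccl2 (chr11:82035571-82037453), Ccl7 (chr11:82045712-82047525), Ccl11 (chr11:82057823-82062955), Ccl12 (chr11:82101845-82103400) and Ccl8 (chr11:82115185-82116799), all on the plus strand. The Ccl3 block began 1408978 bp further on and ran over 138906 bp. It held Ccl5 (chr11:83525778-83530518), Ccl9 (chr11:83572919-83578636), Ccl6 (chr11:83587882-83593087) and Ccl3 (chr11:83647844-83649355) on the minus strand and Ccl4 (chr11:83662584-83664683) on the plus strand. Ccl3 and Ccl4 pointed away from each other across 13228 bp.

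The sequence before the start site was at hand for 5 of the 10 members in RefSeq's promoter table (GRCm38.p6): Ccl3, Ccl6, Ccl8, Ccl9 and Ccl12. Those of Ccl3, the highest of the 5, of Ccl9, and of Ccl12 and Ccl8, the lowest 2, are printed so that genes with high and low levels can be read side by side. Each is the 250 bases before the RefSeq start, 5′ to 3′ on the strand of the gene. For Ccl3, 23 bases lie between this stretch and the GENCODE M21 start, and the others abut it. Capitals mark matches on either strand to the TATA box (TATAAA), to the AP-1 site (TGANTCA) and to the consensus of the NF-kB site.
Ccl3, chr11:83649379-83649628, minus strand: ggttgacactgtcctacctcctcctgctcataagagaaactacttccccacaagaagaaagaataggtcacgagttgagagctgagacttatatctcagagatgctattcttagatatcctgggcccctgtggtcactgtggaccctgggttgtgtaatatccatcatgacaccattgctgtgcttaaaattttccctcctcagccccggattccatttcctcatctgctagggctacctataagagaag
Ccl9, chr11:83578637-83578886, minus strand: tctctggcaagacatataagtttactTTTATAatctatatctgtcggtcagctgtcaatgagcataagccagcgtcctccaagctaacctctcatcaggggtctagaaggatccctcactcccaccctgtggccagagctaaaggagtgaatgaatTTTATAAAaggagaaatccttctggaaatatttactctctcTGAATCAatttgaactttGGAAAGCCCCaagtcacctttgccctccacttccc
Ccl12, chr11:82101595-82101844, plus strand: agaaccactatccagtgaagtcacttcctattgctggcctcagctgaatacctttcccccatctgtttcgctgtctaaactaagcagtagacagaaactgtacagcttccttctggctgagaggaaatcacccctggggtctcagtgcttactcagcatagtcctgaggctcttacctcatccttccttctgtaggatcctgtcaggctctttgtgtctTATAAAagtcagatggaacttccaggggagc
Ccl8, chr11:82114935-82115184, plus strand: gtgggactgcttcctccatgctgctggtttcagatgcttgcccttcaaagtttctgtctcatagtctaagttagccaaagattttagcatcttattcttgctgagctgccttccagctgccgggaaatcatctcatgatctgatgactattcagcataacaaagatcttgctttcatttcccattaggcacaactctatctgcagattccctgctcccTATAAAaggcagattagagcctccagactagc

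Ccl12 and Ccl8 each held a TATAAA close to the start, at bases -31 to -26 and -32 to -27. Ccl9 held TATAAA or its reverse complement 3 times, 2 of these overlapping each other at -94 to -87, an AP-1 match at -53 to -47 and an NF-kB match on the opposite strand at -35 to -26. Ccl3 and Ccl6 held none of these 3 motifs in the 300 bases searched (250 before and 50 after the start). Over all 32851 promoters of this length in the table, 13.6% held TATAAA, 7.81% the AP-1 match and 8.46% the NF-kB match. Of 3 further motifs, the interferon response core GAAANNGAAA was in 3.44% of all promoters and in none of the 5 member promoters. The promoters of the other members were not searched for any motif. The PU.1 core GAGGAA was in 28.3% of all and in Ccl12, Ccl8 and Ccl3, and the C/EBP match TTNNGNAA was in 40.7% of all and in Ccl9 and Ccl3. A C/EBP match of Ccl9, at -38 to -31, overlaps its NF-kB match. The matches describe letters only.

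Depth, as the sum of the authors' expected counts, was 31152786, 114031592 and 59693298 in replicates 1, 2 and 3, so a gene with no count has an upper limit (3 counts) of 0.0963, 0.0263 and 0.0503 CPM, counts scaled to the library total, for counting error only. The levels given are the authors' TPM, a value scaled by transcript length with the same sum in every library. Nuclear-encoded protein-coding genes held 23.5%, 21.1% and 22.0% of TPM. Of 8 macrophage marker genes 8 were detected, at a summed 5334 to 5854 TPM, led by the lysozyme gene Lyz2. No marker gene of T, natural killer, B, mast or dendritic cells, neutrophils, eosinophils or fibroblasts was detected, with summed levels per list of 0 to 1.07 TPM, and 1 of 3 endothelial markers was (Kdr, 2.45 TPM). Replicate 2 stood apart by a low nuclear Malat1 RNA (178 TPM against 741 and 812) and a low mitochondrial share of counts (0.465% against 1.99% and 1.65%).

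A gene was called detected at 1 TPM or more in every library. This held for 9 of the 10 members, all but Ccl11, where 37.6% of 22015 nuclear-encoded protein-coding genes did. Each library had Ccl4, Ccl3, Ccl5, Ccl7, Ccl2 and Ccl9 at 100 TPM or above, which 1.48% of protein-coding genes reached, and all 6 were among the 100 highest protein-coding genes. The median of the members' mean levels was 465 TPM, against 6.84 TPM over detected protein-coding genes. Together the members held 2.29%, 1.81% and 2.03% of protein-coding TPM. In these bulk libraries, fewer cells with an RNA and less of it per cell cannot be told apart.

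**Figure D1:**
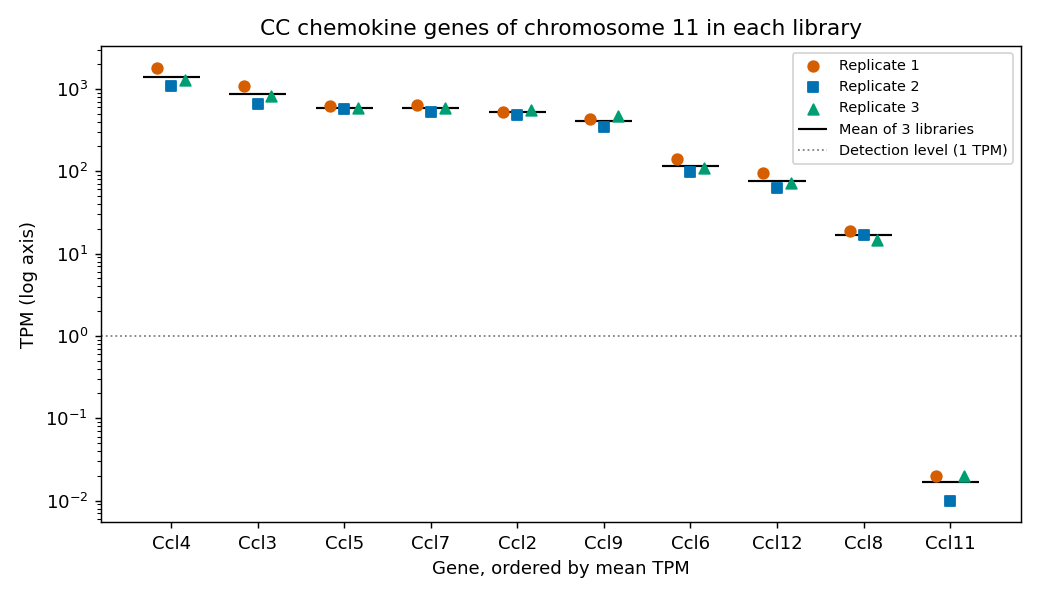
TPM (log axis) of the 10 members in each of the 3 libraries, with the mean as a bar and the detection level of 1 TPM as a dotted line. Ccl4 leads at a mean of 1388 TPM, 5 genes lie between 411 and 856 TPM, and Ccl11 lies below the line in every library.

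Of the macrophage inflammatory protein genes, Ccl4 (ENSMUSG00000018930.3), whose product attracts monocytes and T cells, was at 1815 TPM in replicate 1, 1070.2 in replicate 2 and 1280.3 in replicate 3. Its mean of 1388 ± 384 TPM (SD, n = 3) was the 13th highest of all protein-coding genes. Ccl3 (ENSMUSG00000000982.5), whose product acts through CCR1, was at 1091, 659.9 and 817 TPM in the same order, 856 ± 218 TPM (SD, n = 3). In both genes replicate 1 was high and replicate 2 low. The ratio of Ccl4 to Ccl3 hardly moved: it was 1.66, 1.62 and 1.57 within the libraries, 1.62 ± 0.0485 (SD, n = 3), although the TPM ranges of the 2 genes over libraries overlapped. Together the pair made up 48.8 ± 4.70% of the members' TPM (SD, n = 3).

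Ccl5 (ENSMUSG00000035042.2), whose product attracts T cells and monocytes and acts through CCR1 and CCR3, was at 620.2, 573 and 587 TPM, 593 ± 24.3 TPM (SD, n = 3). In deposited TPM the 3 libraries were closer to each other than for any other detected member, which did not hold in kallisto-layout TPM (Ccl2 closer) or in TMM-scaled counts (Ccl7 closer). Ccl9 (ENSMUSG00000019122.8), a CCR1 ligand described in mice, was at 429, 340.2 and 464 TPM, 411 ± 63.7 TPM (SD, n = 3), here with the highest value in replicate 3. That peak depended on the measure: the coding transcript alone was highest in replicate 1, at 289, 183 and 262 TPM. Ccl6 (ENSMUSG00000018927.3), another CCR1 ligand described in mice, was at 141, 97.0 and 109 TPM, 116 ± 22.5 TPM (SD, n = 3). Ccl9 and Ccl6, neighbours separated by 9245 bp on the same strand, thus differed 3.56-fold in mean TPM, and their ranges did not overlap. The size of this difference depended on the measure. Their coding transcripts alone had means of 244 and 97.3 TPM, and by expected counts Ccl9 exceeded Ccl6 5.61, 4.80 and 6.11 times.

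Of the monocyte chemoattractant genes, Ccl7 (ENSMUSG00000035373.2), a ligand of CCR2, was at 635, 521 and 578 TPM, 578 ± 57.1 TPM (SD, n = 3). Ccl2 (ENSMUSG00000035385.5), the main ligand of CCR2 and an attractant of inflammatory monocytes, was at 526, 477 and 556 TPM, 519 ± 39.8 TPM (SD, n = 3). Ccl7 was above Ccl2 in every library, by 1.21, 1.09 and 1.04 times, with overlapping ranges. Ccl12 (ENSMUSG00000035352.3), a mouse CCR2 ligand, was at 95.0, 63.4 and 72.02 TPM, 76.8 ± 16.3 TPM (SD, n = 3). Ccl2 exceeded it 5.54, 7.52 and 7.71 times.

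Ccl8 (ENSMUSG00000009185.2), which in mice signals through CCR8, was at 18.7, 16.6 and 14.5 TPM, 16.6 ± 2.14 TPM (SD, n = 3). It was the lowest detected member and the only one whose lowest value was in replicate 3. The eotaxin gene Ccl11 (ENSMUSG00000020676.2), whose product attracts eosinophils through CCR3, had 1, 2 and 2 expected counts, or 0.02, 0.01 and 0.02 TPM. This is under the limit that a count of 0 allows, so no level can be given for it. Its neighbours at 10297 bp and 38889 bp, Ccl7 and Ccl12, were both detected. The Ccl3 block held 76.3%, 71.8% and 72.7% of the members' TPM, 73.6 ± 2.36% (SD, n = 3).

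**Figure D2:**
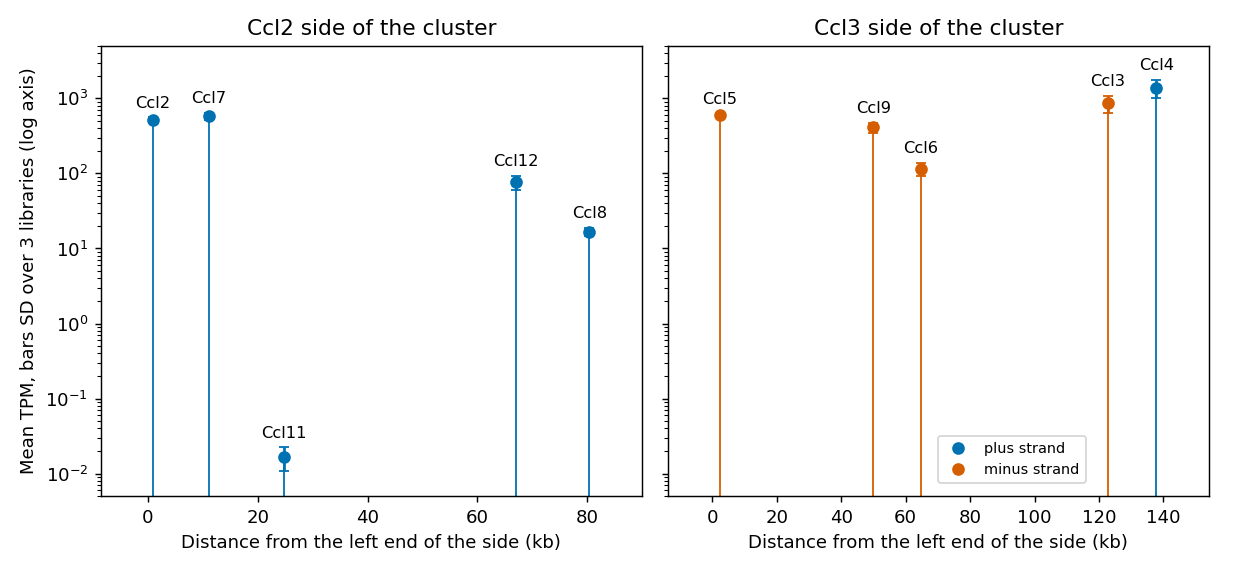
Mean TPM (log axis, bars SD over 3 libraries) against the distance in kb from the left end of each block, coloured by strand. Low genes lie between higher ones in both blocks: undetected Ccl11 lies between Ccl7 at 578 TPM and Ccl12 at 76.8 TPM, and Ccl6 at 116 TPM between Ccl9 at 411 TPM and Ccl3 at 856 TPM.

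In order of mean TPM the members were Ccl4, Ccl3, Ccl5, Ccl7, Ccl2, Ccl9, Ccl6, Ccl12, Ccl8 and Ccl11. Of the 9 pairs of neighbours in this order, 8 kept their order in every library. Ccl5 and Ccl7, whose means differ 1.03-fold, did not, with Ccl7 higher in replicate 1 and Ccl5 in the others. Ranges over libraries overlapped for Ccl4 and Ccl3, for Ccl5 and Ccl7 and for Ccl7 and Ccl2, so the ranges of these neighbours do not tell them apart. Within libraries, Ccl4 exceeded Ccl3 and Ccl7 exceeded Ccl2 in 3 of 3. Ranges were separate for Ccl3 and Ccl5, Ccl2 and Ccl9 (1.26-fold), Ccl9 and Ccl6, Ccl6 and Ccl12 (1.504-fold), Ccl12 and Ccl8 (4.63-fold) and Ccl8 and Ccl11. The smallest two-sided p that an exact sign test allows with 3 libraries is 0.25. Without length scaling the order changed: Ccl9 led with 46407, 124128 and 86541 expected counts, ahead of Ccl4 with 43578, 109734 and 63047. Ccl5 fell below Ccl7 and Ccl2 in every library, with 10714, 42268 and 20907 expected counts.

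Variation between libraries was tested with a Poisson dispersion test on the expected counts, scaled by edgeR's TMM factors and adjusted over all 14037 genes with an average count of at least 10. Of the 9 members tested, 8 varied beyond counting error, where 62.1% of all genes did. Ccl7 was the exception, at 637, 635 and 632 CPM after TMM scaling (adjusted p = 0.673 in this edgeR-scaled test). It was called once the test was run on protein-coding genes alone, in which 61.5% of genes and 9 of 9 members varied. Among genes with an average count of at least 100, 69.8% of genes and 9 of 9 members varied. This test calls smaller differences at higher counts, so the share of 69.8% is the nearer comparison for the members. The tested members had 293 to 124128 expected counts per library, and a share among genes with like counts was not computed. Leaving out replicate 1 ended the calls of Ccl12 and Ccl6, leaving out replicate 2 those of Ccl8 and Ccl9, and leaving out replicate 3 that of Ccl8. The share of all genes called fell as well, to 45.3%, 37.9% and 49.5% in this order.

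The size of the variation differed between members. After TMM scaling, Ccl4 had 1369, 992 and 1057 CPM, Ccl3 1027, 756 and 839, and Ccl9 1457, 1122 and 1450.4. Ccl4 and Ccl3 were high in replicate 1 alone, and Ccl9 was low in replicate 2 alone. These 3 were also the members whose edgeR tagwise dispersion lay above its trend, 3 of 9 where 22.3% of all genes did. Their biological coefficients of variation, 0.149 for Ccl4, 0.141 for Ccl3 and 0.140 for Ccl9, were below the median of all genes, 0.151. The other 6 had values of 0.101 (Ccl6) to 0.148 (Ccl8). Fitted on protein-coding genes alone, the side of the median turned: Ccl4 at 0.133, Ccl3 at 0.127, Ccl8 at 0.126 and Ccl9 at 0.124 were above a median of 0.117. On the log2(TPM + 1) scale, the SD over libraries was 0.39 for Ccl4 and 0.36 for Ccl3, above 94.7% and 94.1% of genes with a mean of at least 1 TPM, and 0.06 for Ccl5, above 15.4% of them. This scale shrinks differences of low genes, so these ranks depend on it. By the coefficient of variation over all genes tested, Ccl4 and Ccl3 ranked at percentiles 49.35 and 46.78.

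By the authors' credibility intervals of TPM, which cover estimation within a library, all 3 pairs of libraries were separate for Ccl2, Ccl7, Ccl12, Ccl9, Ccl6, Ccl3 and Ccl4. That is 7 of the 9 detected members, where 16.1% of detected protein-coding genes had 3 separate pairs. Among genes at 100 TPM or above in each library the share was 56.3%, and 5 of the 6 members there had them. For Ccl5 2 pairs were separate, for Ccl8 1 and for Ccl11 none. The level of these intervals is not given in the sources used here. They need not hold the TPM given here: for Ccl4 in replicate 1 the interval ended at 1800 TPM, below its 1815 TPM.

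In deposited TPM, replicate 1 was the highest library for 7 of 9 detected members, where 63.3% of detected protein-coding genes had it highest. Replicate 2 was the lowest for 8 of 9, against 63.4% of genes. TPM rescaled to protein-coding genes gave 6 of 9 members highest in replicate 1, against 41.2%, and 6 of 9 lowest in replicate 2, against 40.2%. Ccl4 and Ccl3 stood out most, with log2 ratios of replicate 1 to replicate 2 of 0.76 and 0.73 in deposited TPM, larger than in 97.1% and 96.6% of genes, followed by Ccl12 at 0.58 and Ccl6 at 0.54. The median was 0.34 for the members and 0.20 for all detected protein-coding genes. Rescaling brought the median of all genes to 0.04 and left Ccl4 at 0.61, Ccl3 at 0.57, Ccl12 at 0.43 and Ccl6 at 0.38. For Ccl2 and Ccl5 the sign turned, from 0.14 to -0.01 and from 0.11 to -0.04. Replicate 2 is also the library with low Malat1 and mitochondrial RNA, and the part of either in these ratios was not tested.

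**Figure D3:**
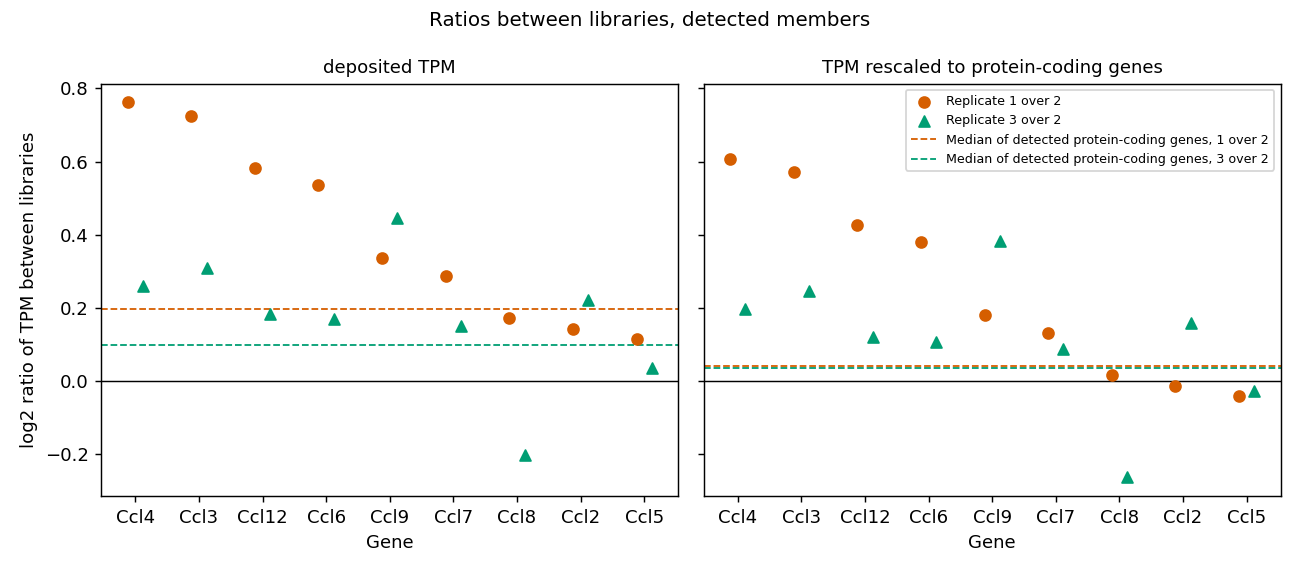
Log2 ratio of TPM of replicates 1 and 3 to replicate 2 for the 9 detected members, in deposited TPM (left) and in TPM rescaled to protein-coding genes (right), with dashed lines at the medians of all detected protein-coding genes. Ccl4 and Ccl3 lie highest for replicate 1, at 0.76 and 0.73 on the left and 0.61 and 0.57 on the right, Ccl9 is highest for replicate 3, and Ccl8 is below 0 for replicate 3 in both.

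The kallisto-layout transcript tables, the authors' second quantification, gave other TPM levels and another lowest library. Summed per gene, Ccl4 was at 773, 448 and 355 TPM. Replicate 1 was the highest for 9 of 9 detected members (83.3% of genes) and replicate 3 the lowest for 9 of 9 (94.3% of genes). Rescaled to protein-coding genes, this quantification again had replicate 1 highest for 7 of 9 (38.0% of genes) and replicate 2 lowest for 6 of 9 (44.5% of genes). The members' share of protein-coding TPM was 2.28%, 1.81% and 1.98%, close to that of the gene tables. So which library is lowest turned with the scaling. Ccl4, Ccl3, Ccl12, Ccl6, Ccl7 and Ccl8 were highest in replicate 1 under all 4 TPM scalings, 6 of 9 where 32.7% of genes were. In TMM-scaled counts Ccl8 was instead highest in replicate 2, at 9.20, 10.3 and 7.84 CPM, and Ccl7 was nearly level.

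The annotation gives the members 16 transcripts, 10 of them protein-coding, and Ccl3, Ccl4, Ccl7, Ccl8 and Ccl11 have 1 each. The largest noncoding share by TPM was in Ccl9. Its processed transcript ENSMUST00000136131.1, annotated without a reading frame, held 32.8%, 46.2% and 43.5% of the gene's TPM in the RSEM-layout tables and 52.5%, 59.1% and 54.2% in the kallisto-layout tables. By expected counts it held only 2.85%, 5.42% and 4.61%, so its share depends on length scaling. It is 398 bases long and 359 of them lie in exons of the coding transcript ENSMUST00000019266.5. The remaining 39 bases are its first exon, within an intron of the coding transcript. That exon is the only sequence that sets this form apart, and it is printed from the GENCODE M21 transcripts.
ENSMUST00000136131.1 exon 1, chr11:83577104-83577142, minus strand: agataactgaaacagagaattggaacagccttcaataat
With coding transcripts alone, Ccl9 was at 289, 183 and 262 TPM, 244 ± 54.8 TPM (SD, n = 3), against 411 TPM for the gene.

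By TPM, retained-intron transcripts held a smaller mean share of the other genes than this form did of Ccl9. By expected counts the order turned: the mean share was 7.30% for the main retained-intron form of Ccl6 and 6.42% for that of Ccl5, against 4.29% for the Ccl9 form, and 22.4%, 10.3% and 7.39% by kallisto-layout counts. The retained-intron transcript of Ccl6 (ENSMUST00000138145.1) held 23.8%, 9.55% and 10.3% of Ccl6 TPM in the RSEM-layout tables and 42.2%, 40.8% and 33.8% in the kallisto-layout tables, with 705 of its 776 bases inside coding exons. Only in the RSEM-layout tables did replicate 1 stand apart. That of Ccl5 (ENSMUST00000125015.1), which has 428 of its 668 bases outside the coding exons, held 5.99%, 1.83% and 5.83% of Ccl5 TPM, and 9.71%, 2.83% and 9.54% in the kallisto-layout tables. That of Ccl2 (ENSMUST00000124479.1), with 325 of 1096 bases outside, held 0.976%, 0.462% and 0.949% of Ccl2 TPM. The noncoding transcript of Ccl12 (ENSMUST00000124916.1), with all its bases inside coding exons, held 2.46% to 3.54% of Ccl12 TPM. A further retained-intron form of Ccl6 (ENSMUST00000150243.1) held 0.119% to 0.313% of Ccl6 TPM. The Ccl5, Ccl2 and Ccl12 forms were lowest in replicate 2 in both layouts, as nuclear Malat1 RNA was. Neither Ccl6 form was lowest there in both layouts, and the Ccl9 form was highest there in both. A relation to Malat1 was not tested.

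**Figure D4:**
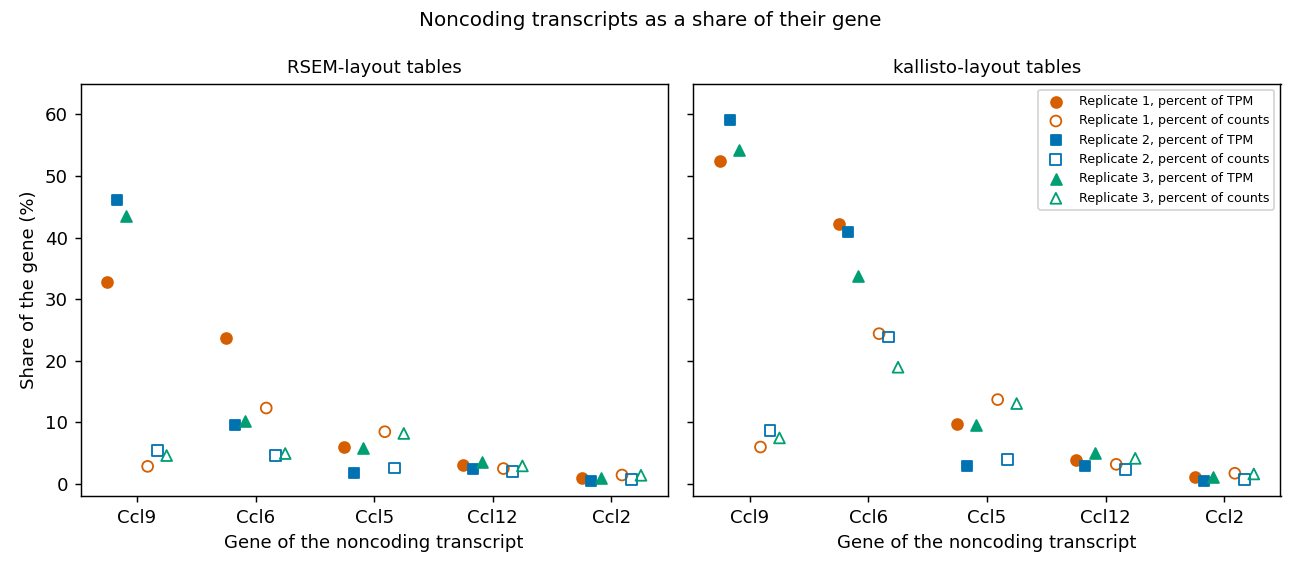
The most abundant noncoding transcript of 5 genes as a percent of its gene in the RSEM-layout (left) and kallisto-layout (right) tables, by TPM (filled) and by counts (open), in 3 libraries. The Ccl9 form holds 32.8% to 46.2% by TPM on the left but 2.85% to 5.42% by counts. In both panels the Ccl5, Ccl12 and Ccl2 forms are lowest in replicate 2 and the Ccl9 form is highest there.

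Gene models on the other strand overlap 2 members. Gm17268 overlaps Ccl2 and had no counts, and E230016K23Rik spans Ccl6 and had 6, 9 and 5. The strand setting of the counting is not given in the sources used here, so reads of overlapping genes cannot be separated with certainty. The expected counts of all 10 members were exactly whole in every library, as were those of 69.6% of detected protein-coding genes.

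Few other genes of the CC chemokine system were detected. Of 11 CC chemokine genes outside the 10, 2 were detected: Ccl22, an attractant of T cells, at 7.51 ± 1.32 TPM and Ccl24, a further CCR3 ligand, at 1.80 ± 0.539 TPM (SD, n = 3 each). Ccl1, whose gene lies in the gap between the blocks, had 0, 3 and 0 counts. The 10 members thus held 99.8 ± 0.0373% of the TPM of all 21 genes (SD, n = 3). Receptor genes were detected as well. Ccrl2, an atypical receptor that does not signal as the others do, was at 191, 194 and 152 TPM, and Ccr1, a receptor for Ccl3, Ccl5, Ccl6 and Ccl9 products, at 35.8, 25.6 and 33.6 TPM. Ccr3 was at 3.33 ± 0.795 TPM (SD, n = 3). Ccr2, the receptor of the Ccl2, Ccl7 and Ccl12 products, was at 1.66, 0.81 and 1.05 TPM and so was not detected in every library.

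Genes with the pattern over libraries most like a member were ranked by Euclidean distance of centred log2(TPM + 1) values over 3 libraries, among 3322 other genes with a mean of at least 10 TPM. The nearest to Ccl4 were the kinase gene Pim1 (171, 102 and 121 TPM, distance 0.017), the coagulation factor gene F13a1 (15.4, 8.50 and 10.7 TPM, 0.033) and Nfkbiz, which encodes a nuclear IkB protein (159.9, 97.1 and 116 TPM, 0.036). Only 21 genes lay within 0.1 of Ccl4. The nearest to Ccl2 were Cdk11b, Lrp10 and Sod2, with 491 genes within 0.1, and the nearest to the mean of the 9 detected members were Galnt1, Il10ra, Rlim, 1700020I14Rik and Nptn, with 422 within 0.1. With 3 libraries, the distance describes these libraries only.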

How the data were processed

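Cytosolic total RNA of lipid A-treated macrophages was sequenced in 3 libraries. Each has gene and transcript tables laid out as RSEM writes them and a transcript table laid out as kallisto does, on mm10 per the labels and GENCODE M21 per the text deposited with each library. What aligner, tool versions and strand setting were used is not given in the sources used here. Deposited by the authors were expected counts, which need not be whole and were rounded for count tests, and TPM, per the file headers scaled by length to a fixed sum over all 81881 features. The deposited bounds of the credibility interval of TPM were treated as a signal.

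TPM was also divided by its sum over 22015 nuclear-encoded protein-coding genes. Dispersion was tested by a chi-square statistic on counts scaled with edgeR 4.0.16 TMM factors (R 4.3.3), with Benjamini-Hochberg adjustment over all genes with an average count of at least 10, called at 0.05, and tested on simulated data. DESeq2 1.42.0 size factors were an alternative. Log values were taken as log2(TPM + 1), a scale that shrinks differences of low genes. Other steps used Python 3.11.15 and pandas 2.3.3. Detection was 1 TPM in every library. Motifs were searched on both strands of RefSeq promoters.

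The named genes are all members, the detected genes of a list of other CC chemokines and one of receptors (not all receptor results are reported here), the 5 highest other genes between the outermost members, and the nearest in pattern (5 to the members' mean, 3 each to Ccl4 and Ccl2). Members, lists and tests were chosen with earlier results of these data known.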

Additional observations from a re-analysis of the deposited data

How the results depend on the processing

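The number of members detected stayed at 9 under every alternative run: thresholds of 0.1 and 10 TPM, the kallisto-layout and rescaled TPM, the authors' posterior mean, and leaving out each library. The members' share of protein-coding TPM was 2.04%, 1.92% to 2.16% with a library left out, and 0.623% by expected counts, in which short genes weigh less. As a share of all TPM it was 0.456%, with all other features in the denominator. The share of the Ccl3 block stayed between 72.3% and 75.5% over all alternatives. Of 9 neighbouring pairs, 8 or 9 kept their order under each. The members that varied beyond counting error numbered 8 (62.1% of all genes), and 6 to 7 with a library left out (37.9% to 49.5% of genes). Counted by a tagwise dispersion above its trend there were 3 (22.3% of genes), since this asks for more than counting error. Under the other 7 settings they were 8 or 9, where 43.4% to 74.9% of genes were called, and Ccl7 made the difference. The kallisto-layout tables moved all 10 levels (Ccl4 to 525 TPM, Ccl9 to 192) and 4 of 5 transcript shares by more than the SD over libraries. All 9 spreads rose, 4 of them by more than their own value in deposited TPM. The mean of Ccl9 lay just above that of Ccl2 (192 against 191 TPM), but in replicate 2 Ccl9 was lower (179 against 199 TPM). The cause of these shifts was not tested. The comparison of lowest and highest libraries in those tables and the levels of coding transcripts alone were chosen after seeing the data; the latter moved Ccl5 (to 566 TPM) and Ccl9. No paired analysis was possible because there is 1 group. Depth limits Ccl11 most, at 1 to 2 counts, and then Ccl8, at 293 to 1138 counts.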

Other observations

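The 1629113 bp from Ccl2 to Ccl4 hold 59 further annotated genes, 28 of them protein-coding, of which 11 were detected. The 5 highest were the Schlafen gene Slfn2 at 539 ± 20.5 TPM, the small nuclear RNA gene Gm23444 at 425 ± 213 TPM, the Schlafen genes Slfn5 at 137 ± 7.67 TPM and Slfn8 at 62.0 ± 3.36 TPM, and the adaptor protein gene Ap2b1 at 25.4 ± 0.735 TPM (SD, n = 3 each). All 5 lie in the gap between the blocks. The mean of Slfn2 thus lay between those of Ccl7 and Ccl2, but in replicate 3 Slfn2 (546 TPM) was below Ccl2 (556 TPM). Gm23444 was at 533, 180.1 and 562 TPM, low in replicate 2. Inside the blocks, the 3 annotated genes that are not members, Gm17268, E230016K23Rik and Rpl9-ps1, were all under the detection level.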
